A study of Mus musculus with 40 samples.

Results

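Brown adipose tissue (BAT) of 5 HFD CL mice was compared with that of 5 chow CL mice across all genes, 10 of the 40 libraries that were sequenced. The members were the libraries whose labels gave a wildtype genotype, daily CL injections and either chow or HFD. The question was how a week of dietary fat altered the BAT transcriptome when both groups had received daily injections of a β3-adrenergic agonist. Every mouse received CL (CL-316,243, a β3-adrenergic receptor agonist) at 1 mg/kg for 9 consecutive days. Tissue was collected the day after the last injection, which the paper chose in order to assess chronic rather than acute effects. HFD CL mice were switched to a diet with 60 kcal% fat for 7 days, starting 2 days after the first injection, and chow CL mice stayed on chow. All were 15-week-old male control littermates of I-3BO mice, a line that overexpresses *Gpr3* in brown and beige adipocytes after tamoxifen, and were housed at 29 °C. They were either heterozygous for the *Gpr3* transgene (TTG) without Cre or positive for *Ucp1*-CreERT2 without the transgene. The wildtype label therefore covers both of these genotypes. Other groups are used only for comparison. Saline mice went through the same scheme with saline, and uninjected control and C-3BO mice of 13 to 19 weeks, the latter overexpressing *Gpr3* through *Ucp1*-Cre, were fed chow or the same HFD for 7 days. Levels are CPM, that is counts relative to the library total after TMM scaling, and are listed for mice 1 to 5 of each group in that order.

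BAT burns fatty acids to make heat. Its mitochondria carry UCP1, which lets protons return across the inner membrane without ATP being made, and norepinephrine sets the tissue in motion through β-adrenergic receptors, cAMP and lipolysis. Brown adipocytes also make fatty acids from glucose, and in rodents the lipogenic enzymes of BAT are known to respond to insulin, carbohydrate and dietary fat. A β3 agonist given over several days is known to raise *Ucp1* and to set precursor and endothelial cells of fat depots dividing.

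The libraries of the HFD CL mice differed from those of the chow CL mice in more than diet. Their totals were 3391730 to 6028764 counts against 9419056 to 15260516, and the level worth 3 counts, the least that this depth can show, was 0.495 to 0.872 CPM against 0.216 to 0.356 CPM, for counting error only. All 5 also held transcripts of liver and epididymis. *Alb*, the plasma protein albumin made by hepatocytes, lay at 0.295, 0.237, 0.0924, 1.01 and 0.432 CPM in the chow CL mice and at 191, 133, 109, 114 and 97.2 CPM in the HFD CL mice. The same transcripts and low totals were present in all 5 HFD saline libraries and in libraries 4 and 5 of the HFD C-3BO group, 12 libraries in all, and *Alb* reached at most 1.62 CPM in the remaining 28. Nothing in the labels names a batch, and for HFD CL against chow CL mice such a batch cannot be told apart from the diet. Markers of brown adipocytes were present in every mouse, their sum lying between 21511 and 30441 CPM in chow CL mice and between 25591 and 32180 CPM in HFD CL mice. Fewer cells of a type and less RNA per cell cannot be told apart in such bulk samples.

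**Figure D1:**
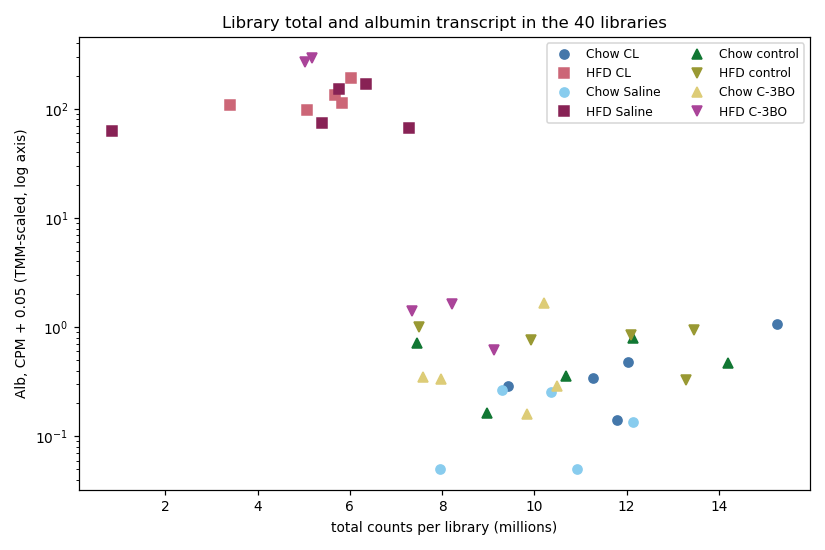
Total counts of each of the 40 libraries (horizontal axis) against *Alb* (vertical log axis, CPM with 0.05 added, TMM-scaled), with a symbol for each group. The 5 HFD CL libraries sit at the upper left between 97.2 and 191 CPM with the 5 HFD saline and 2 of the 5 HFD C-3BO libraries, and the 5 chow CL libraries lie at or below 1.01 CPM.

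With edgeR's quasi-likelihood test over 13277 genes and Benjamini-Hochberg adjustment, 416 genes (3.13%) were higher and 294 (2.21%) lower in HFD CL mice by a log2 fold change beyond 1 with an adjusted p under 0.05. With the adjusted p alone, 1445 genes (10.9%) were higher and 1692 (12.7%) lower. Counts on the gene lists below use the adjusted p alone and are to be read against these shares. Over all genes tested, the log2 fold changes had a median of -0.01. Scaling by library totals alone moved that median to 0.16 and the calls to 607 higher and 193 lower, so 75.9% instead of 58.6% of the called genes were higher. Among the 416 higher genes, 51 were on lists of liver, epididymis, testis, kidney or pancreas genes. A further 88 differed by more than 1 on the log2 scale between HFD C-3BO libraries 4 and 5, which held the liver transcripts, and libraries 1 to 3, which did not. Of these 88, 72 differed there in the same direction as in HFD CL mice. The corresponding numbers for the 294 lower genes were 2 on the lists and 45 others, of which 25 differed in the same direction. Left after both steps were 277 higher and 247 lower genes, called the genes that did not move with the liver transcripts below. For 189 and 177 of these, the 5 mice of each diet did not overlap. The share without overlap over all tested genes was not counted. Genes already chosen by adjusted p and fold change tend to be separated, so these counts are descriptions only. When a term for the 12 libraries was fitted instead, estimated by HFD C-3BO libraries 4 and 5 against 1 to 3, 65 genes were higher and 106 lower. Of 83 genes followed through the settings, 71 had an adjusted p under 0.05 in the main fit, and 48 of these 71 lost it with that term.

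Liver and epididymis genes rose steeply. Of 75 genes on the liver list 54 were tested, and 44 of these rose. Of 41 on the epididymis list 8 were tested, and 7 of these rose. A gene with almost no counts in chow CL mice could pass the filter only through libraries with liver transcripts. Its rise was then largely fixed by the filter, so these counts are a description. *Lcn8*, a lipocalin of the epididymis, had no count in any chow CL mouse and lay at 31.8, 22.4, 13.4, 15.3 and 12.4 CPM in the HFD CL mice, at least 67.9-fold higher against a floor of 3 counts per chow library. *Apob*, the structural protein of lipoproteins secreted by liver and gut, lay at 0.0983, 0, 0.0924, 0.144 and 0.0863 CPM in the chow CL mice and at 21.7, 17.8, 13.1, 11.9 and 10.5 CPM in the HFD CL mice, at least 53.5-fold higher by the same floor. The rise was the same kind in the saline cohort, where 43 of the 54 liver genes were higher on HFD, whereas 1 was higher in the control mice of the genetic cohort, whose HFD libraries lacked these transcripts. The 6 liver-list genes that exceeded 5 CPM in chow CL mice are also made by adipose tissue or varied within a group, and they did not rise. *Hp*, which encodes the acute-phase protein haptoglobin, lay at 564, 575, 1393, 344 and 627 CPM in the chow CL mice and at 362, 354, 397, 278 and 294 CPM in the HFD CL mice, and fell by 1.06 on the log2 scale. With the term for the 12 libraries *Hp* was -0.64 and lost its call (adjusted p = 0.508). *Itih4*, another acute-phase gene, was at 147 CPM in chow CL mouse 3 and at most 3.60 CPM in the other 4, and its log2 fold change of -2.12 became 1.49 without that mouse. *Trf* (transferrin), *Cyp2e1* (a cytochrome P450), *Gys2* (liver-type glycogen synthase) and *Fbp1* (a gluconeogenic phosphatase) had log2 fold changes of -0.51, -0.38, -0.07 and 0.57, none past the threshold. The whole liver list held 0.0950% to 0.135% of the counts of an HFD CL library and 0.0749% to 0.197% of those of a chow CL library. It includes the genes also made by adipose tissue, so this share does not measure carried-over liver RNA. Of the testis, kidney and pancreas lists only 3 of 17, 4 of 13 and 1 of 21 genes were tested, and none of these rose.

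Genes that make fatty acids from glucose fell in HFD CL mice, with the largest share of falls of the pathway lists. Of 24 tested genes of *de novo* lipogenesis 19 fell and none rose, with a median log2 fold change of -1.23. Their summed level was 138605, 163947, 138190, 139711 and 150281 CPM in the chow CL mice and 55377, 43129, 66519, 50093 and 34580 CPM in the HFD CL mice. In chow CL mice these few genes thus took a large part of all counts, and each HFD CL mouse lay far below each chow CL mouse. The first committed step is carried out by acetyl-CoA carboxylase. *Acaca* (NM_133360, mm9 chr11:84008940-84215153), which encodes it, lay at 2012, 2194, 2117, 1899 and 1808 CPM in the chow CL mice and at 314, 215, 422, 445 and 242 CPM in the HFD CL mice (log2 fold change -2.62 ± 0.36, adjusted p = 2.57e-06). *Acly* (NM_134037, chr11:100337666-100389314), whose product splits citrate into the acetyl-CoA used for synthesis, lay at 8800.4, 10010.3, 7078, 7825 and 7231 CPM in the chow CL mice and at 1741, 1103, 1955, 1804 and 875 CPM in the HFD CL mice (log2 fold change -2.45 ± 0.46, adjusted p = 1.53e-04). *Fasn* (NM_007988, chr11:120667272-120685861), the synthase that builds palmitate, lay at 41354, 45266, 46236, 40763 and 33285 CPM in the chow CL mice and at 11127, 5590.2, 13025, 11296 and 4416 CPM in the HFD CL mice (log2 fold change -2.19 ± 0.49, adjusted p = 0.00103). None of these 3 overlapped between diets, and among the HFD CL mice *Fasn* was lowest in mice 2 and 5. Around this core, the mitochondrial citrate carrier *Slc25a1* fell by 2.08 on the log2 scale, the acetate-activating enzyme *Acss2* by 1.93, malic enzyme *Me1* by 1.61, the elongase *Elovl6* by 1.52 and the desaturase *Scd1* by 1.28. *Srebf1*, the transcription factor gene best known for driving these enzymes, lay at 654, 945, 755, 726 and 473 CPM in the chow CL mice and at 762, 513, 638, 464 and 443 CPM in the HFD CL mice, overlapping between diets (log2 fold change -0.33, adjusted p = 0.257). *Mlxipl*, which encodes the glucose-responsive factor ChREBP, fell by 0.90. For *Acaca*, *Acly* and *Fasn* the libraries with liver transcripts in the HFD C-3BO group were higher, by 1.31, 1.64 and 1.63 on the log2 scale, opposite in sign to the fall in HFD CL mice. The count was 17 of 24 with the term for the 12 libraries. It was 19 in the saline mice and 21 in the control mice.

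**Figure D2:**
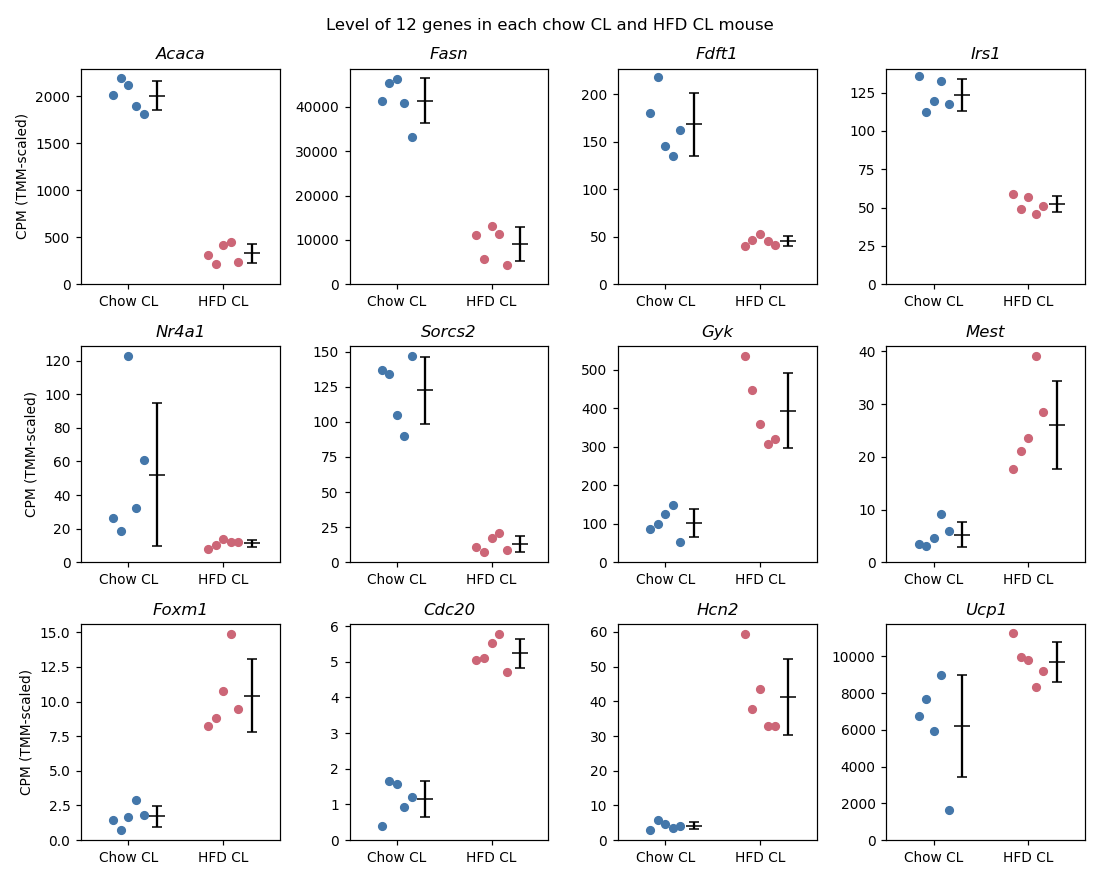
Level of 12 genes (vertical axes from 0, CPM, TMM-scaled) in each of the 5 chow CL mice (blue) and 5 HFD CL mice (red), with the mean and SD beside the points. The diets are fully separated for 11 genes, whereas *Ucp1* overlaps, with a single chow CL mouse at 1644 CPM far below the other 4.

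Sterol synthesis fell alongside. Of 23 tested genes of cholesterol synthesis and uptake 13 fell and none rose, with a median log2 fold change of -0.61. *Fdft1* (NM_010191, chr14:63763988-63796630), which encodes squalene synthase, the branch point towards sterols, lay at 179.8, 218, 146, 135 and 162 CPM in the chow CL mice and at 40.4, 46.7, 53.2, 45.9 and 41.6 CPM in the HFD CL mice (log2 fold change -1.89 ± 0.15, adjusted p = 4.78e-11). *Pmvk*, the phosphomevalonate kinase of the mevalonate pathway, lay at 99, 97.2, 75.4, 79.1 and 179 CPM in the chow CL mice and at 38.5, 31.9, 41, 50.5 and 36.7 CPM in the HFD CL mice (log2 fold change -1.41 ± 0.22, adjusted p = 1.88e-05). *Lss*, which closes the ring of lanosterol, lay at 70.9, 73.5, 61.3, 58 and 109.6 CPM in the chow CL mice and at 30.8, 23.6, 31.1, 31.2 and 32.7 CPM in the HFD CL mice (log2 fold change -1.32 ± 0.17, adjusted p = 1.04e-06). Chow CL mouse 5 was the highest for *Pmvk* and *Lss*, and both genes were separated by diet with and without it. *Sqle*, *Tm7sf2*, *Fdps* and *Dhcr7* fell by 1.01, 0.98, 0.90 and 0.82. *Fdft1* fell further than in the control mice, where its log2 fold change was -1.17 (difference -0.71 ± 0.21, adjusted p = 0.0219). Counts of *Fdft1* cannot be fully separated from those of *Ctsb* on the opposite strand, whose span overlaps it and whose log2 fold change was -0.26, since the strand setting of the counting was not stated. In the fit with the term for the 12 libraries 9 of the 23 genes fell.

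The promoters of the sterol genes are shown because nearly all hold the CCAAT box, written CCAAT or ATTGG on the other strand. RefSeq promoter windows on GRCm38.p6, 250 bases before to 50 after each start, were matched for 10047 of the 13277 tested genes, and 42.6% of these held it in at least 1 window. Of the tested sterol genes with a window 15 of 16 held it, and of those that fell 9 of 10. The share was thus no higher among the sterol genes that fell. The 250 bases upstream of the 2 sterol genes of largest fall with a single window and no overlap between diets are given 5′ to 3′ with the box in capitals, *Lss* at chr10:76531355-76531604 on the plus strand and *Tm7sf2*, a sterol reductase, at chr19:6067851-6068100 on the minus strand.
Lss: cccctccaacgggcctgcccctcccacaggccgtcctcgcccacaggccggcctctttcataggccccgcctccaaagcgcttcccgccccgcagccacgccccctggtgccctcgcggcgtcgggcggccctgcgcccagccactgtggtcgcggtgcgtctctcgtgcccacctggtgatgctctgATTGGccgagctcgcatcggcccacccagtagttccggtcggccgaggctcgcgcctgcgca
Tm7sf2: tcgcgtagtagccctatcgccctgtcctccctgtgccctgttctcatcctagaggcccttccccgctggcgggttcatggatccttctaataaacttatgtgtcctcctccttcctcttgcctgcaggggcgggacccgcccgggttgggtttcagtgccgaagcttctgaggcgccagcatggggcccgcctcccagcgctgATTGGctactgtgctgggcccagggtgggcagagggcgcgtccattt
Each of these windows held a single box in the same orientation. A match of these letters is a description and not a measured binding site.

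Genes that bring sugar into the cell and burn it fell in part, as did genes of insulin signalling. Of 29 genes of glucose uptake and glycolysis 10 fell and 1 rose. *Slc2a5* (NM_019741, chr4:149493453-149518277), the fructose transporter GLUT5, lay at 83, 84.2, 57.2, 65.8 and 63.9 CPM in the chow CL mice and at 13.8, 7.47, 20.4, 9.41 and 2.91 CPM in the HFD CL mice (log2 fold change -2.77 ± 0.64, adjusted p = 0.00148). *Aldoc* and *Aldoa* encode aldolases of glycolysis, and *Aldoa*, the more widely used form, lay at 5887, 5818, 4635, 4498 and 5103 CPM in the chow CL mice and at 2927, 2163, 2485, 2587 and 1983 CPM in the HFD CL mice (log2 fold change -1.09 ± 0.19, adjusted p = 5.41e-05). The insulin-responsive transporter *Slc2a4* and lactate dehydrogenase *Ldha* each fell by 0.48. Of 21 glycogen genes 8 fell and 1 rose, led by *Pygl*, a glycogen phosphorylase, which lay at 1300.5, 1204, 1346, 1232 and 1330.1 CPM in the chow CL mice and at 505, 403, 544, 556 and 401 CPM in the HFD CL mice (log2 fold change -1.41 ± 0.24, adjusted p = 5.22e-05). Among 15 genes of pyruvate entry 5 fell and none rose, including the mitochondrial pyruvate carrier *Mpc1* and the dehydrogenase kinase *Pdk1* (log2 fold change -1.05 ± 0.14, adjusted p = 1.11e-06). *Pdk4*, the kinase that classically rises when fat replaces glucose as fuel, lay at 2313, 988, 3444, 2732 and 4043 CPM in the chow CL mice and at 1860.2, 2098, 1605, 2492 and 2347 CPM in the HFD CL mice, overlapping between diets (log2 fold change -0.38, adjusted p = 0.37). Of 23 insulin signalling genes 10 fell and none rose. *Irs1* (NM_010570, chr1:82229680-82288014), the docking protein that links the insulin receptor to PI3 kinase, lay at 136, 112, 119, 132 and 117 CPM in the chow CL mice and at 58.9, 49.4, 57, 45.5 and 51 CPM in the HFD CL mice (log2 fold change -1.24 ± 0.15, adjusted p = 3.85e-07). *Irs2*, its relative, lay at 52.8, 14.6, 17.5, 40.9 and 53.3 CPM in the chow CL mice and at 11.4, 11, 8.43, 9.90 and 13.3 CPM in the HFD CL mice (log2 fold change -1.72 ± 0.48, adjusted p = 0.00746), and chow CL mice 2 and 3 came close to the HFD CL mice. In the saline mice 9 glycolysis genes fell on HFD, and 8 insulin signalling genes fell and 1 rose. In the control mice 14 glycolysis genes fell and 1 rose, whereas 4 insulin signalling genes fell and 4 rose, where 17.5% of all genes were lower and 15.4% higher. With library totals alone, 6 insulin signalling genes fell in CL mice, and with the term for the 12 libraries 1 fell, with *Irs1* at -0.78 (adjusted p = 0.102) and *Irs2* at -1.25 (adjusted p = 0.522).

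The thermogenic programme itself showed no common direction. Of 30 thermogenesis genes 3 rose (10.0%, against 10.9% of all genes) and 5 fell (16.7%, against 12.7%), with a median log2 fold change of 0.08. *Ucp1* (NM_009463, chr8:85814247-85822355) lay at 6761, 7660.4, 5943, 8986 and 1644 CPM in the chow CL mice and at 11261, 9953, 9791, 8324 and 9191 CPM in the HFD CL mice (log2 fold change 0.65 ± 0.26, adjusted p = 0.0693). Chow CL mouse 4 lay within the range of the HFD CL mice, and chow CL mouse 5 stood far below all others. *Ucp1* passed with library totals alone (log2 fold change 0.83, adjusted p = 0.0108). It also passed without chow CL mouse 4 (adjusted p = 0.0302), with DESeq2 (0.0432), with at least 10 counts in all 10 libraries (0.0468) and with the block within the 10 libraries (0.0486). *Gyk* (NM_008194, chrX:82947276-83022158), glycerol kinase, which lets brown fat reuse glycerol for triglycerides, lay at 87.5, 98.3, 124, 149.8 and 52.1 CPM in the chow CL mice and at 537, 448, 359, 308 and 319.7 CPM in the HFD CL mice (log2 fold change 1.95 ± 0.33, adjusted p = 4.94e-05). *Dio2*, the deiodinase that activates thyroid hormone, lay at 40.1, 24.5, 60.8, 91.8 and 27.8 CPM in the chow CL mice and at 126, 143, 100.3, 87.1 and 84.1 CPM in the HFD CL mice, and its log2 fold change of 1.13 was barely past the threshold (adjusted p = 0.05). It did not pass with DESeq2 (adjusted p = 0.0609), without the filter (0.0531), with replicate number as a block (0.052), with the term for the 12 libraries (0.693) or without any single mouse other than chow CL mouse 4 (0.0529 to 0.128). *Ppargc1b*, a coactivator of mitochondrial genes, lay at 210.2, 181, 214, 209 and 117 CPM in the chow CL mice and at 72.8, 78.7, 85.5, 95.2 and 104 CPM in the HFD CL mice (log2 fold change -1.10 ± 0.15, adjusted p = 2.82e-06). *Acot11*, a thioesterase of brown fat, lay at 1076, 1012, 1044, 1042 and 559 CPM in the chow CL mice and at 528, 420.0, 489, 491 and 391 CPM in the HFD CL mice (log2 fold change -1.03 ± 0.32, adjusted p = 0.0169), with chow CL mouse 5 again closest to the HFD CL mice. *Elovl3*, the elongase induced in recruited brown fat, lay at 222, 265, 202, 212 and 102 CPM in the chow CL mice and at 309, 182, 109.6, 149.8 and 95.6 CPM in the HFD CL mice, overlapping between diets (log2 fold change -0.24, adjusted p = 0.675). With the term for the 12 libraries *Gyk* was 1.55 (adjusted p = 0.151) and *Ppargc1b* -0.75 (adjusted p = 0.1215), so that both lost their call.

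Receptors and early targets of the cAMP pathway mostly passed in neither direction. Of 45 tested genes of β-adrenergic and cAMP signalling 8 fell (17.8%, against 12.7% of all genes) and 2 rose (4.44%, against 10.9%). The receptor that CL targets, *Adrb3*, lay at 255, 249, 303, 282 and 366 CPM in the chow CL mice and at 206, 186, 250.1, 276 and 199 CPM in the HFD CL mice, with overlapping groups (log2 fold change -0.38, adjusted p = 0.189). *Nr4a1*, an immediate early gene switched on by cAMP, lay at 26.1, 18.9, 123, 32.4 and 60.9 CPM in the chow CL mice and at 7.90, 10.4, 14, 12 and 11.8 CPM in the HFD CL mice (log2 fold change -2.24 ± 0.55, adjusted p = 0.00269). With the term for the 12 libraries *Nr4a1* was -1.95 and lost its call (adjusted p = 0.395). These levels are from tissue collected the day after the last injection. *Rgs2*, which dampens G protein signals, fell by 1.33, the soluble adenylyl cyclase *Adcy10* by 2.32 and the prostaglandin receptor *Ptger3* by 0.81. *Pde4b*, a phosphodiesterase that degrades cAMP, rose by 1.00 on the log2 scale with no overlap. *Gpr3*, which encodes a constitutively active Gs-coupled receptor, lay at 0.295, 0.711, 9.15, 0.144 and 0.259 CPM in the chow CL mice and at 1.18, 0.679, 0, 0.990 and 0.182 CPM in the HFD CL mice. Chow CL mouse 3 alone exceeded 9 CPM, and the log2 fold change of -1.62 (adjusted p = 0.141) became 1.03 without that mouse.

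On the side of fat use, genes changed in both directions. Of 33 PPAR target genes 8 rose (24.2%, against 10.9% of all genes) and 2 fell, with a median log2 fold change of 0.22, and in the control mice 14 rose and none fell. Of 26 genes of mitochondrial fatty acid oxidation 4 rose (15.4%) and 3 fell (11.5%), near the 10.9% and 12.7% of all genes. *Cpt1a*, the gate for long-chain fatty acids into mitochondria in liver and other tissues, lay at 17.6, 18.3, 27.6, 19.2 and 16.2 CPM in the chow CL mice and at 42, 41.6, 37.2, 38.6 and 36.3 CPM in the HFD CL mice (log2 fold change 0.99 ± 0.14, adjusted p = 5.05e-06). *Fabp3*, a cytosolic fatty acid carrier of oxidative tissues, lay at 174, 201, 115, 154 and 104 CPM in the chow CL mice and at 346, 264, 325, 285 and 272 CPM in the HFD CL mice (log2 fold change 1.00 ± 0.19, adjusted p = 1.59e-04). Both were fully separated by diet. The fatty acid transporter *Cd36* rose by 0.44. *Acsl5*, which activates fatty acids, fell by 1.34 and *Angptl4*, an inhibitor of lipoprotein lipase and a PPAR target, lay at 506, 214, 493, 336 and 1084 CPM in the chow CL mice and at 131, 178, 183, 324 and 334 CPM in the HFD CL mice (log2 fold change -1.19 ± 0.34, adjusted p = 0.00989). The fall of *Angptl4* was -0.75 without chow CL mouse 5 (adjusted p = 0.0977) and -0.80 with the term for the 12 libraries (adjusted p = 0.536). Respiratory chain genes fell by small amounts. Of 36 complex I genes 13 fell and none rose (median -0.26), and of 42 genes of complexes II to V 16 fell and 1 rose, the last being the electron carrier cytochrome c, *Cycs*. *Ndufa1*, a small subunit of complex I, lay at 316, 305, 284, 279.9 and 328 CPM in the chow CL mice and at 232, 208, 187, 203 and 164 CPM in the HFD CL mice (log2 fold change -0.61 ± 0.17, adjusted p = 0.00868). In complex I 28 genes fell in the control mice and 9 in the saline mice. The complex I count in CL mice was 8 with library totals alone, 21 in a fit to the 10 libraries alone and 1 with the term for the 12 libraries.

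Genes of dividing cells rose together in HFD CL mice. Of 42 cell cycle genes 28 rose and none fell, with a median log2 fold change of 1.28. Their summed level was 192, 204, 233, 248 and 210.4 CPM in the chow CL mice and 330.2, 425, 391, 451 and 385 CPM in the HFD CL mice, so that the lowest HFD CL mouse was above the highest chow CL mouse. *Foxm1* (NM_008021, chr6:128313012-128325904), the transcription factor of genes for the G2 and M phases, lay at 1.47, 0.711, 1.66, 2.88 and 1.81 CPM in the chow CL mice and at 8.24, 8.83, 10.8, 14.9 and 9.45 CPM in the HFD CL mice (log2 fold change 2.56 ± 0.36, adjusted p = 3.82e-06). *Cdc20* (NM_023223, chr4:118105506-118109948), the activator of the anaphase-promoting complex, lay at 0.393, 1.66, 1.57, 0.937 and 1.21 CPM in the chow CL mice and at 5.04, 5.09, 5.53, 5.78 and 4.72 CPM in the HFD CL mice (log2 fold change 2.18 ± 0.34, adjusted p = 1.43e-05). *Kif11*, the motor that separates the spindle poles, lay at 0.491, 0.830, 2.68, 2.74 and 3.02 CPM in the chow CL mice and at 6.39, 10.4, 6.98, 10.4 and 8.90 CPM in the HFD CL mice (log2 fold change 2.11 ± 0.38, adjusted p = 1.04e-04). All these levels are low, at most 14.9 CPM, and the low totals of the HFD CL libraries limit their precision. *Mki67*, which encodes the proliferation marker Ki-67, lay at 3.34, 6.52, 10.2, 12 and 7.08 CPM in the chow CL mice and at 26.7, 34.6, 27.9, 31.5 and 21.4 CPM in the HFD CL mice (log2 fold change 1.85 ± 0.37, adjusted p = 3.25e-04). Further genes linked to division were among the 12 largest rises of genes that did not move with the liver transcripts, did not overlap between diets and averaged at least 2 CPM in HFD CL mice. *Iqgap3*, a scaffold linked to proliferation, *Pbk* and *Melk*, mitotic kinases, *Ckap2l*, a spindle protein, *Nek2*, a centrosomal kinase, and *Mxd3*, a MAX partner, rose by 2.99, 2.90, 2.76, 2.70, 2.49 and 3.31 on the log2 scale. The cell cycle count was 13 in the saline mice. In the control mice 5 of the 42 genes were higher and 2 lower, where 15.4% of all genes were higher and 17.5% lower. With the term for the 12 libraries 4 of the 42 passed, while their median stayed at 1.28 and the median standard error went from 0.32 to 0.63. *Foxm1*, *Cdc20*, *Kif11*, *Pbk*, *Melk*, *Ckap2l*, *Nek2* and *Mxd3* did not pass with that term (adjusted p = 0.051 to 0.686). With at least 10 counts asked of all 10 libraries, 17 of 27 passed.

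The promoters of mitotic genes are shown for the pairing of CCAAT boxes with the sequence TTTGAA, the core of the cell cycle homology region, searched with TTCAAA on the other strand. Neither motif contains the other. Among the cell cycle genes that rose, 20 of 23 with a window held CCAAT and 13 of 23 held TTTGAA, against 42.6% and 14.1% of all tested genes with a window. Of all tested cell cycle genes with a window, risen or not, 28 of 35 held CCAAT and 17 of 35 held TTTGAA. The 250 upstream bases of the 2 with the steepest rise, a single window and no overlap between diets are given with both motifs in capitals, *Cdc20* at chr4:118437344-118437593 on the minus strand and *Kif11* at chr19:37376132-37376381 on the plus strand (GRCm38.p6).
Cdc20: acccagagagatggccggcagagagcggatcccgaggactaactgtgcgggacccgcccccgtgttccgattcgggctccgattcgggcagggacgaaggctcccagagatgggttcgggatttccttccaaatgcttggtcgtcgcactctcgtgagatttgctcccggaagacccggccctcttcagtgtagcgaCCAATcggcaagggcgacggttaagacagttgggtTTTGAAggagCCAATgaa
Kif11: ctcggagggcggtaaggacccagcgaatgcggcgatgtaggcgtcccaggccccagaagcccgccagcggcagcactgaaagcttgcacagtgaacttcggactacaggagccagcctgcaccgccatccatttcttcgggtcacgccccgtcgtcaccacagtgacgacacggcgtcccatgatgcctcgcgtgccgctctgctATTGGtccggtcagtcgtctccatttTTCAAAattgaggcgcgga
*Cdc20* held 2 CCAAT boxes on either side of TTTGAA, and *Kif11* held both motifs close together on the opposite strand.

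Vessel and matrix genes also rose. Of 19 endothelial markers 13 rose and none fell, with a median log2 fold change of 0.56, and their summed level was 1518 to 1892 CPM in chow CL mice and 2433 to 3177 CPM in HFD CL mice. *Pecam1*, the junction protein CD31, lay at 202, 204, 177, 230.3 and 224 CPM in the chow CL mice and at 324, 344, 326, 429.9 and 362 CPM in the HFD CL mice (log2 fold change 0.78 ± 0.14, adjusted p = 6.21e-05). *Sox18*, a transcription factor of endothelial cells, lay at 36.3, 37.4, 32.7, 37.5 and 32.5 CPM in the chow CL mice and at 72.1, 64.2, 61.1, 90.8 and 95 CPM in the HFD CL mice (log2 fold change 1.12 ± 0.17, adjusted p = 8.23e-06). Separation by diet was complete for both. In the control mice 14 of the 19 endothelial genes rose on HFD and in the saline mice 4. Of 46 collagen and matrix genes 17 rose and none fell. *Col12a1* (NM_001290308, chr9:79446794-79566529), a collagen at the surface of fibrils, lay at 22.6, 22.3, 53.3, 41.2 and 29.9 CPM in the chow CL mice and at 77.3, 138, 117, 131 and 139 CPM in the HFD CL mice (log2 fold change 1.83 ± 0.25, adjusted p = 2.10e-06). *Loxl1*, which crosslinks elastin, and *Nid2*, a basement membrane link protein, rose by 1.47 and 1.38, and both lost their call with the term for the 12 libraries (adjusted p = 0.0946 and 0.0836). Basement membrane collagens *Col4a1* and *Col4a2* rose by 0.66 and 0.79. With the term for the 12 libraries 3 endothelial and 5 matrix genes passed.

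Macrophage markers rose in part, and their count varied with single mice. Of 32 tested markers 8 rose (25.0%, against 10.9% of all genes) and none fell. In the saline mice 23 were higher and 1 lower, where 7.45% of all genes were higher and 8.04% lower. Their summed level was 294, 253, 677, 303 and 347 CPM in the chow CL mice and 278, 531, 494, 438 and 855 CPM in the HFD CL mice. The groups overlapped, chow CL mouse 3 exceeding 4 of the 5 HFD CL mice. *Trem2*, a receptor of lipid-associated macrophages, lay at 1.67, 1.42, 1.66, 1.23 and 1.12 CPM in the chow CL mice and at 2.35, 3.56, 2.33, 2.64 and 7.99 CPM in the HFD CL mice (log2 fold change 1.42 ± 0.50, adjusted p = 0.0356). *Spp1*, which encodes osteopontin, lay at 0.491, 0.711, 0.924, 0.504 and 1.04 CPM in the chow CL mice and at 1.18, 3.56, 1.16, 4.13 and 9.45 CPM in the HFD CL mice (log2 fold change 2.41 ± 0.65, adjusted p = 0.00585). HFD CL mouse 5 had the highest level of both, and without it none of the 32 markers passed. The count was 4 without chow CL mouse 2 and 5 without chow CL mouse 4. Without chow CL mouse 3 it was 10, and the median log2 fold change went from 0.40 to 0.76. Few genes passed on the marker lists of the other cells named next. No lymphocyte marker rose. Of 7 granulocyte and mast cell markers 3 rose, the mast cell genes *Cma1*, *Cpa3* and *Mcpt4*, by 1.37, 1.52 and 1.61, and 2 fell, the neutrophil protease genes *Elane* and *Prtn3*, by 3.21 and 2.75. Of 28 skeletal muscle genes *Mb* rose and *Mybph* was lower, while the list had a median log2 fold change of 1.73. Of these 28 genes 22 moved with the liver transcripts. Myoglobin (*Mb*), the oxygen store of muscle, lay at 20.7, 26.7, 16.5, 35.8 and 6.39 CPM in the chow CL mice and at 79.9, 69.1, 63.4, 75.4 and 74.1 CPM in the HFD CL mice (log2 fold change 1.77 ± 0.63, adjusted p = 0.038). The summed muscle level was 164.6 to 452.7 CPM in HFD CL mice 2 to 5, 1244 CPM in HFD CL mouse 1 and 86.1 to 336 CPM in chow CL mice, and the part of carried-over muscle in the rise of *Mb* was not tested.

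Genes tied to the growth of fat depots and to secretion by fat cells changed in part. Of 14 fat expansion genes 5 rose and 1 fell. *Mest* (NM_001252293, chr6:30683506-30698466), an imprinted gene that marks fat mass expansion, lay at 3.44, 3.08, 4.62, 9.08 and 5.87 CPM in the chow CL mice and at 17.7, 21, 23.6, 39.1 and 28.5 CPM in the HFD CL mice (log2 fold change 2.29 ± 0.30, adjusted p = 1.43e-06). *Nnat*, an imprinted gene active in adipocytes, lay at 11.7, 8.66, 9.70, 6.77 and 6.91 CPM in the chow CL mice and at 28.2, 19.3, 27.3, 30.4 and 18.3 CPM in the HFD CL mice (log2 fold change 1.5 ± 0.44, adjusted p = 0.0111). *Peg3*, an imprinted zinc finger gene, fell by 1.33 and the cyclin gene *Ccnd1* rose by 1.31. *Lep*, which encodes leptin, lay at 82.9, 174, 45.3, 55.8 and 50.6 CPM in the chow CL mice and at 219, 144, 388, 126 and 89 CPM in the HFD CL mice, with overlap (log2 fold change 1.24, adjusted p = 0.0918). *Cfd*, which encodes adipsin, lay at 816, 876, 970.1, 666 and 801 CPM in the chow CL mice and at 302, 234, 219, 283 and 379 CPM in the HFD CL mice (log2 fold change -1.54 ± 0.32, adjusted p = 5.38e-04), and it was also lower, by 1.10, in the HFD C-3BO libraries with liver transcripts. *Apln*, the angiogenic peptide apelin, lay at 7.86, 7.83, 13.6, 26.2 and 9.24 CPM in the chow CL mice and at 42.5, 45.1, 27.9, 33.8 and 42 CPM in the HFD CL mice (log2 fold change 1.55 ± 0.29, adjusted p = 1.45e-04). *Igfbp2*, an insulin-like growth factor binding protein made by liver as well, had at most 1 count in a chow CL mouse and lay at 1.68, 1.19, 1.45, 0.990 and 1.27 CPM in HFD CL mice, at least 4.69-fold higher by the 3-count floor. Its level, and that of the ketone enzyme gene *Bdh1* (log2 fold change 2.23 ± 0.66, adjusted p = 0.0126), went with the liver transcripts in the HFD C-3BO libraries, where they were higher by 3.21 and 2.50, and both fitted log2 fold changes were below 0 with the term for the 12 libraries. With that term *Peg3* was -0.23 (adjusted p = 0.890), *Cfd* -0.51 (adjusted p = 0.668), *Nnat* 1.42 (adjusted p = 0.330) and *Apln* 1.57 (adjusted p = 0.0972), so that these 4 lost their call.

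Stress and interferon genes gave smaller groups. Of 33 interferon response genes 6 rose (18.2%, against 10.9% of all genes) and none fell. The foremost, *Ifi44*, lay at 3.34, 2.25, 2.96, 2.88 and 4.14 CPM in the chow CL mice and at 7.40, 8.32, 8.72, 11.7 and 10.5 CPM in the HFD CL mice (log2 fold change 1.58 ± 0.30, adjusted p = 1.72e-04). Of 27 oxidative stress genes 7 fell (25.9%, against 12.7% of all genes) and 4 rose (14.8%, against 10.9%). *Gpx3*, a secreted glutathione peroxidase, lay at 1709, 1719, 1767, 1270.1 and 1716 CPM in the chow CL mice and at 730.3, 836, 683, 778 and 1028 CPM in the HFD CL mice (log2 fold change -1.01 ± 0.18, adjusted p = 8.55e-05), and *Mt2*, a metallothionein, fell by 1.37. The integrated stress response list was divided, 5 of 26 genes rising and 5 falling (19.2% each). *Slc7a5*, a transporter of large neutral amino acids, lay at 1.57, 0.711, 0.554, 1.01 and 1.64 CPM in the chow CL mice and at 3.36, 3.22, 8.43, 2.31 and 2.00 CPM in the HFD CL mice (log2 fold change 1.74 ± 0.47, adjusted p = 0.00606), with HFD CL mouse 3 apart from the rest, and it was also higher by 1.33 in the HFD C-3BO libraries with liver transcripts. *Ifi44*, *Gpx3*, *Mt2* and *Slc7a5* did not pass with the term for the 12 libraries (adjusted p = 0.0675 to 0.967).

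The steepest falls outside these lists came from genes of several roles. *Sorcs2* (NM_030889, chr5:36359830-36740788), a sorting receptor of the VPS10 family, lay at 137, 134, 105, 89.8 and 147 CPM in the chow CL mice and at 10.6, 7.13, 17.4, 21 and 8.72 CPM in the HFD CL mice (log2 fold change -3.25 ± 0.32, adjusted p = 3.18e-09). *Cyp1a1*, the cytochrome P450 induced by the aryl hydrocarbon receptor, lay at 3.05, 6.52, 5.08, 3.24 and 1.38 CPM in the chow CL mice and at 0.336, 0.170, 0, 0.660 and 0.545 CPM in the HFD CL mice (log2 fold change -3.32 ± 0.83, adjusted p = 0.00301). *Cdk6*, a G1 cyclin-dependent kinase, lay at 9.83, 8.54, 10.8, 8.07 and 4.49 CPM in the chow CL mice and at 1.51, 1.02, 0.872, 0.825 and 1.27 CPM in the HFD CL mice (log2 fold change -2.89 ± 0.34, adjusted p = 1.75e-07). This fall of a cell cycle kinase went against the rise of mitotic genes. *Atp4b*, the β subunit of the gastric proton pump, fell by 3.08, the transporter gene *Slc15a5* by 3.15, *Tmem132b* by 3.80, *Zfp369* by 3.55, *Avil* by 3.05 and *BC021614* by 2.51. *D830031N03Rik* lay at 24.8, 33.2, 27.6, 31.2 and 14.3 CPM in the chow CL mice and at 1.85, 2.04, 2.04, 3.14 and 3.45 CPM in the HFD CL mice (log2 fold change -3.37 ± 0.33, adjusted p = 2.90e-09), and *Zbed6*, a transposon-derived repressor gene, lay at 15.8, 31.2, 24.2, 19.2 and 6.56 CPM in the chow CL mice and at 1.51, 3.39, 1.16, 2.64 and 2.36 CPM in the HFD CL mice (log2 fold change -3.06 ± 0.41, adjusted p = 1.63e-06). Each of the latter pair lies within the span of a longer gene on the same strand, *Macf1* and *Zc3h11a*, with log2 fold changes of -0.38 and -0.21, so reads of the host transcript may be counted in it. Among rises outside the lists, *Cpne5*, a copine, lay at 0.393, 1.07, 1.48, 1.59 and 0 CPM in the chow CL mice and at 6.73, 13.7, 7.85, 11.2 and 7.99 CPM in the HFD CL mice (log2 fold change 3.36 ± 0.43, adjusted p = 9.64e-07), and *Tmem255a*, *Lrrn1* and *D430019H16Rik* rose by 2.54, 2.48 and 3.33. With the term for the 12 libraries *Tmem132b* turned to 0.13 (adjusted p = 0.891). *Zfp369*, *Cyp1a1*, *Slc15a5*, *Atp4b*, *Zbed6*, *Avil* and *BC021614* kept their direction and lost their call (adjusted p = 0.110 to 0.325). So did *Tmem255a*, *Lrrn1* and *D430019H16Rik* (adjusted p = 0.113 to 0.723). HFD control libraries lacked the liver transcripts. In control mice *Zfp369*, *Cyp1a1*, *Slc15a5*, *Atp4b* and *Zbed6* were at -3.67, -6.62, -3.29, -4.19 and -4.79 (adjusted p at most 1.28e-05). *Tmem132b*, *Sorcs2*, *D830031N03Rik* and *Cdk6* were also lower there (adjusted p at most 0.00448). *Avil* and *BC021614* did not pass there (adjusted p = 0.0696 and 0.104). Nor did *Cpne5*, *Tmem255a*, *Lrrn1* and *D430019H16Rik* (adjusted p = 0.444 to 0.830).

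The same diet switch was made in saline mice and in the control mice of the genetic cohort, and the values are set side by side. In saline mice 989 genes (7.45%) were higher and 1068 (8.04%) lower on HFD by adjusted p, and in control mice 2044 (15.4%) and 2321 (17.5%). Of the 247 lower genes that did not move with the liver transcripts, 135 (54.7%) were also lower in saline mice, 143 (57.9%) in control mice and 106 in both. Of the 277 higher genes, 109 (39.4%) were also higher in saline mice, 60 (21.7%) in control mice and 37 in both. The share of falls shared with control mice was thus far above its background and the share of rises little above it. Median log2 fold changes of the lower genes were -1.34 in CL, -0.92 in saline and -0.90 in control mice, and of the higher genes 1.41, 0.84 and 0.45. The median of the CL mice was part of the choice of these genes. HFD saline library 4 had only 849126 counts, which limits the saline counts. HFD saline libraries held the liver transcripts as well, whereas HFD control libraries did not. Chow control libraries in turn held muscle transcripts, 1454 to 16548 CPM on the muscle list against 67.7 to 422.7 CPM in HFD control libraries, and 27 of 28 muscle genes were lower on HFD there.

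**Figure D3:**
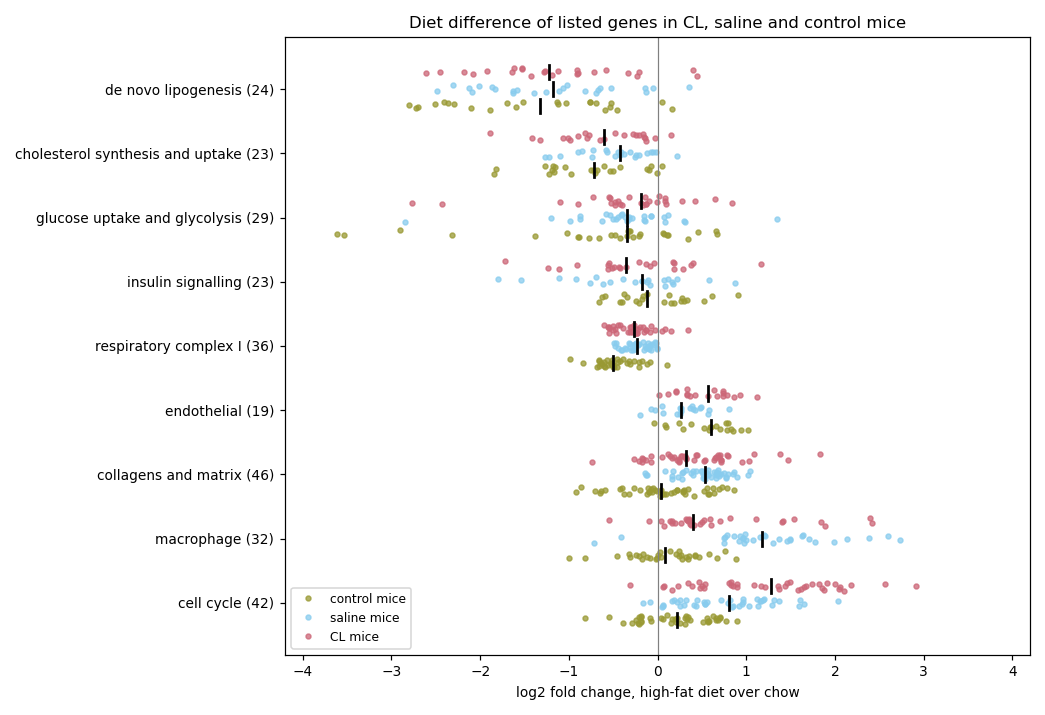
Log2 fold change of HFD over chow (horizontal axis) for each tested gene of 9 lists (number of genes in parentheses) in CL mice (red), saline mice (blue) and control mice (olive), with a black bar at the median of each list. Lipogenic genes lie left of 0 in all cohorts, with medians of -1.23, -1.18 and -1.32, whereas cell cycle genes have medians of 1.28, 0.80 and 0.21 and macrophage genes 0.40, 1.18 and 0.09.

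**Figure D4:**
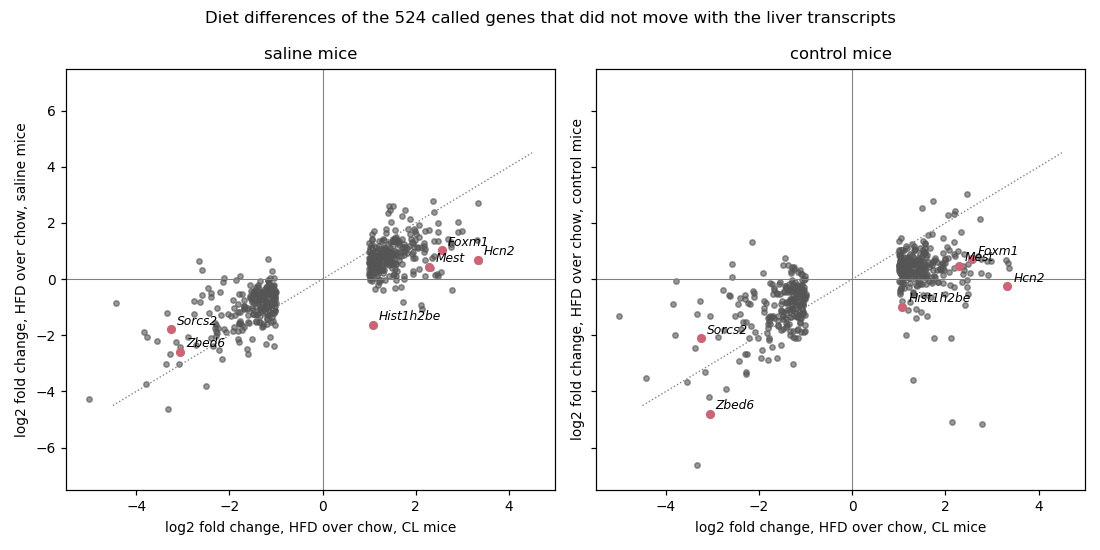
Log2 fold change of HFD over chow in CL mice (horizontal axes) against that in saline mice (left) and control mice (right) for the 524 called genes that did not move with the liver transcripts, each gene a point and the dotted line marking equal values. Falls lie below 0 in both panels for most genes, whereas *Hcn2* and *Hist1h2be* lie at or below 0.69 on the vertical axes.

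Whether the diet difference itself differed was tested as an interaction. Between CL and saline mice 2 genes (0.0151%) had a larger diet difference in CL mice and 0 (0%) a smaller one by edgeR's adjusted p, while 1250 genes had an unadjusted p under 0.05 and DESeq2 called 17 and 19. The first was *Hcn2* (NM_008226, chr10:79179379-79198853), a hyperpolarization-activated cation channel of pacemaker and nerve cells. It lay at 3.05, 5.69, 4.53, 3.46 and 3.97 CPM in the chow CL mice and at 59.4, 37.7, 43.6, 33 and 32.9 CPM in the HFD CL mice (log2 fold change 3.33 ± 0.27, adjusted p = 4.78e-11). In chow saline mice it lay at 0.756, 2.78, 2.41, 0.101 and 2.47 CPM and in HFD saline mice at 3.03, 2.20, 2.91, 2.01 and 3.18 CPM, so the rise on HFD with CL had no counterpart of its size with saline (difference 2.64 ± 0.47, adjusted p = 0.012). HFD saline library 4 had only 849126 counts, so that 3 counts were worth 3.01 CPM there and its 2.01 CPM lay under that floor. The HFD C-3BO mice had 79.3 to 121 CPM and the chow C-3BO mice 5.14 to 13.7 CPM, and libraries with and without liver transcripts differed by 0.13 on the log2 scale. The other was *Hist1h2be*, a histone H2B gene of a family with near-identical copies, whose counts are uncertain for that reason. It lay at 2.85, 5.10, 3.69, 4.11 and 3.02 CPM in the chow CL mice and at 9.92, 8.32, 8.14, 6.11 and 7.08 CPM in the HFD CL mice (log2 fold change 1.08 ± 0.25, adjusted p = 0.00184). With the term for the 12 libraries its log2 fold change was 1.12 (adjusted p = 0.176). In saline mice it was lower on HFD (difference 2.70 ± 0.42, adjusted p = 0.00164). *Hist1h4h*, a histone H4 gene, rose by 1.20 in CL mice and had a log2 fold change of -0.22 in saline mice. Without chow saline mouse 5 the counts were 6 larger and 18 smaller.

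Between CL and control mice, a comparison added after the data were seen, 737 genes (5.55%) had a larger and 737 (5.55%) a smaller diet difference in CL mice. With the term for the 12 libraries these were 36 and 30, so most of these calls were lost with it. *Elovl3* fell by 3.62 on the log2 scale in control mice (adjusted p = 2.74e-07) and did not pass in CL mice (difference 3.38 ± 0.59, adjusted p = 2.83e-04). Its mean was 31.2 CPM in chow control and 2.35 CPM in HFD control mice, against 201 ± 60.2 (SD, n = 5) and 169 ± 85.3 CPM (SD, n = 5) in chow and HFD CL mice. *Ucp1* rose by 1.98 in control mice, from a mean of 1239 to 4903 CPM, and the difference from CL mice was -1.34 ± 0.37, adjusted p = 0.0154. *Mest* rose more in CL than in control mice (1.82 ± 0.42, adjusted p = 0.00386), HFD CL mice at 17.7 to 39.1 CPM lying above all 35 other mice. *Ppargc1b*, which encodes a coactivator of mitochondrial genes, fell further in CL than in control mice (-1.28 ± 0.21, adjusted p = 1.72e-04). *Foxm1* and *Kif11* rose further, by 1.86 (adjusted p = 0.0134) and 2.32 (adjusted p = 0.00292), and *Loxl1* by 1.32 (adjusted p = 0.00501). The differences of single genes given here are from the main fit. In CL mice *Ppargc1b*, *Foxm1*, *Kif11* and *Loxl1* lost their diet call with the term for the 12 libraries (adjusted p = 0.0635 to 0.1215). For *Acaca*, *Acly* and *Fasn* the diet differences in control mice were -2.41, -2.70 and -2.72, and none differed from those in CL mice by adjusted p.

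**Figure D5:**
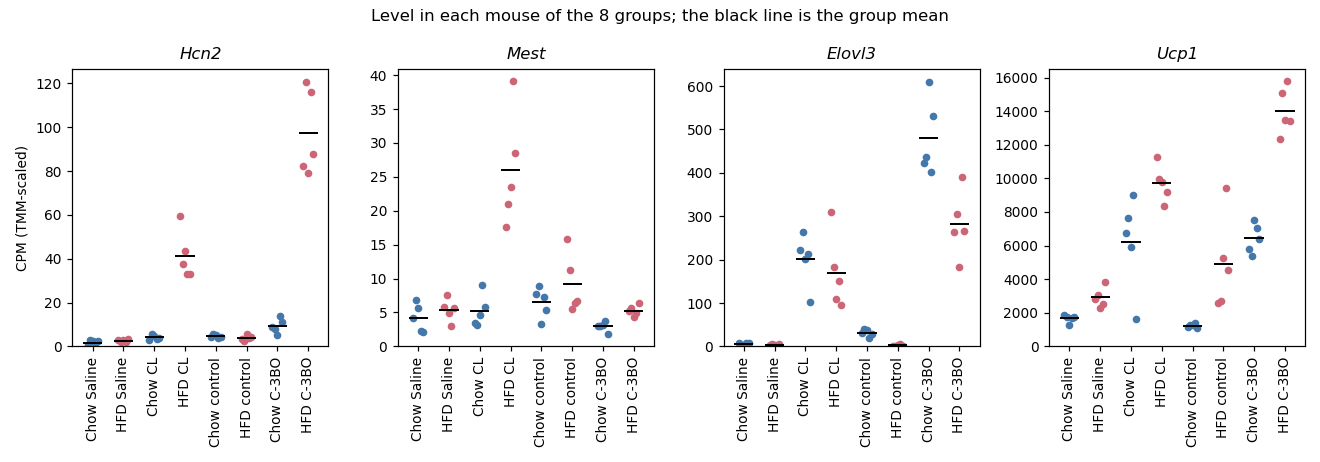
Level of *Hcn2*, *Mest*, *Elovl3* and *Ucp1* (vertical axes from 0, CPM, TMM-scaled) in each of the 5 mice of all 8 groups, chow in blue and HFD in red, with a black line at each group mean. *Hcn2* is high in HFD CL and HFD C-3BO mice, *Mest* in HFD CL mice, and *Elovl3* reaches a mean of 169 CPM in HFD CL mice against 3.57 CPM in HFD saline and 2.35 CPM in HFD control mice.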

How the data were processed

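The authors isolated poly(A) RNA, prepared TruSeq libraries, aligned reads with STAR (mm9), made HOMER tag directories and obtained exon counts of RefSeq genes by iRNA-seq. The deposited values are raw counts for 20295 genes. Tool versions, strandedness and filters are not given in the sources used here. Some other named genes also overlap a gene on the opposite strand, as *Fdft1* does. Among them are *Cdc20* with *Elovl1* (log2 fold change 0.45), *Mxd3* with *Prelid1* (0.04), *Mest* with *Copg2* (0.04) and *Nid2* with *2700060E02Rik* (-0.16). *Foxm1* overlaps *4933413G19Rik*, which was not tested, on the same strand. Libraries of the same diet differed by more than counting noise in each of the 20 pairs of CL mice, and all 40 libraries were used.

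Genes were filtered with filterByExpr of edgeR 4.0.16 (minimum count 10) over the 8 groups, library sizes were scaled by TMM, and the quasi-likelihood fit used all 40 libraries with a mean for each group. P-values were adjusted by Benjamini and Hochberg over all 13277 genes. Calls needed a log2 fold change beyond 1 and an adjusted p under 0.05, and lists and interactions the adjusted p alone. Errors after ± are standard errors, the log2 fold change divided by the square root of F, unless SD is named. Mice are the replicates, and p-values rest on the spread between mice within all 8 groups, not only within the 2 compared. In a fit to the 10 libraries alone, the median standard error of the lipogenic genes was 0.145 instead of 0.263. Library totals of the 10 mice were 3391730 to 15260516 counts, and 3 counts were taken as the floor, for counting error only. Shifts between HFD C-3BO libraries used log2 CPM with a prior count of 2.

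The comparison, the 46 gene lists and the tests were chosen with earlier results of these data known, so no list is independent evidence. *Lpl* was dropped from the macrophage list since adipocytes express it. Genes named are the 12 largest called rises and falls without overlap between diets, not moving with the liver transcripts and with a mean of at least 2 CPM in the higher group, up to 3 called genes per pathway list, the 8 liver and 3 epididymis genes with most counts, the interaction calls, and 10 genes named in any case. Further members of the lists were named after their values were seen. A few of these genes, 1 of them with a mouse apart by Dixon's criterion, are not reported here. The alternatives were DESeq2 1.42.0, library totals alone, RLE factors, other filters, the libraries of a contrast alone, replicate number as a block, a term for the 12 libraries with liver transcripts, leaving out genes that move with those transcripts, and leaving out each library in turn. The comparison with control mice and the list counts under each setting were added after the data were seen. The edgeR and DESeq2 steps were tested on simulated counts. Positions are those of mm9, numbered from 1, except for promoters. R 4.3.3, Python 3.11.15 and matplotlib 3.10.9 were used.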

Additional observations from a re-analysis of the deposited data

Results flagged for a closer look

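Of 176 groups of 5 values that were examined with Dixon's criterion, 17 held a mouse apart from the other 4, where about 1 in 20 is expected by chance. Chow CL mouse 3 had the highest *Hp* (1393 CPM), *Itih4* (147 CPM), *Lcn2* (13.4 CPM), *Gpr3* (9.15 CPM) and *Hcar2* (32.4 CPM), a summed liver-list level of 2149 CPM and a summed macrophage level of 677 CPM. *Hp*, *Itih4* and *Lcn2* are known as acute-phase genes, and *Alb* lay at 0.0924 CPM in this mouse. Chow CL mouse 5 had the lowest *Acot11* (559 CPM), *Acsl5* (419 CPM) and *Adcy10* (6.73 CPM) and the highest *Pmvk* (179 CPM). In single cases, chow CL mouse 4 had the lowest *Gpx3* (1270.1 CPM) and chow CL mouse 3 the only count of *Igfbp2* (0.0924 CPM). Among the HFD CL mice, mouse 1 was apart for the summed muscle level (1244 CPM), mouse 2 for *Lss* (23.6 CPM) and mouse 3 for *Slc7a5* (8.43 CPM).

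The diet difference was larger in CL than in saline mice for *Hist1h2be* (2.70 on the log2 scale) and *Hcn2* (2.64), by the interaction test. Against the control mice, 737 genes had a larger and 737 a smaller diet difference in CL mice. That comparison joins separate cohorts whose HFD libraries differ in liver transcripts and whose chow libraries differ in muscle transcripts, and the part of either in these calls was not tested.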

How the results depend on the processing

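Without each library of the comparison in turn, 367 to 450 genes were higher and 264 to 303 lower in HFD CL mice. With at least 10 counts in all 10 libraries, which left 10770 genes, 169 were higher and 134 lower. With library totals alone 193 were lower, with the term for the 12 libraries 65 were higher and 106 lower, and without the genes that move with the liver transcripts 277 were higher. The higher and lower counts lay within 1.5 times the main counts under the remaining settings. For larger and smaller diet differences in CL than in saline mice, DESeq2 gave 17 and 19, the libraries of that contrast alone 7 and 7, the filter on 10 counts 0 larger, the term for the 12 libraries 1 smaller, and leaving out single libraries 2 to 6 larger and 0 to 18 smaller, the highest without chow saline mouse 5 with 6 smaller without chow CL mouse 3 and 4 without chow CL mouse 4. Against control mice, the filter on 10 counts gave 475 smaller, the term for the 12 libraries 36 larger and 30 smaller, and leaving out single libraries 593 to 890.0 larger and 445 to 807 smaller, 445 without HFD control mouse 3 and 470 without chow control mouse 4.

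Same-numbered chow CL and HFD CL mice shared only a number, the correlation of their deviations from the group means lying between -0.05 and 0.16, with 2 of 5 mice correlating best with their own number. With replicate number as a block, 414 genes were higher and 287 lower (348 and 216 within the 10 libraries), and the number of larger diet differences than in saline mice was 2 (0 within the 20 libraries of that contrast).

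Of 1529 repeats of the log2 fold changes of 83 named genes, 14 changed sign. With library totals alone *Gys2* was 0.10 and *Lcn2* 0.016. With the block *Lcn2* was 0.38, and within the 10 libraries *Lcn2* was 1.25 and *Itih4* 0.082. With the term for the 12 libraries *Tmem132b* was 0.13, *Bdh1* -0.58, *Igfbp2* -1.75, *Fbp1* -2.78 and *Lcn8* -0.94, and 48 named genes lost their call. Leaving out single mice moved *Itih4* between -2.43 and 1.49, *Lcn2* between -0.46 and 2.66 and *Gpr3* between -1.98 and 1.03, each highest without chow CL mouse 3, and *Gys2* between -0.22 and 0.0026. The causes of these shifts were not tested. Low totals limit what could be seen in genes under about 1 CPM.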

Other observations

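Further gene lists are read against the 10.9% of all genes that were higher and the 12.7% that were lower in HFD CL mice. Of 25 genes that break down branched-chain amino acids 1 rose and none fell, and of 20 genes of the tricarboxylic acid cycle 2 rose and 2 fell. Of 26 chaperones of the endoplasmic reticulum 2 rose and 3 fell, and of 18 cytosolic heat shock genes 3 fell and none rose. Peroxisomal lipid oxidation had 3 rises and 1 fall among 27 genes. Lipolysis and lipid droplet genes had 1 rise, *Mgll*, which encodes monoglyceride lipase, and 4 falls among 23, *Hcar2*, a receptor of ketone bodies and niacin, among them. *Hcar2* did not pass without chow CL mouse 3 (-0.76, adjusted p = 0.112), without HFD CL mouse 3 (adjusted p = 0.0528) or with the term for the 12 libraries (-0.37, adjusted p = 0.828). Of 22 clock genes 1 rose and 4 fell.

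Precursor and nerve markers rose in part. Of 18 fibroblast and preadipocyte genes 4 rose and none fell, *Cd34* by 1.07 and *Pdgfrb*, a receptor of mural and precursor cells, by 0.55. Of 11 nerve and Schwann cell genes *S100b* and *Uchl1* rose, by 1.45 and 1.42. No smooth muscle gene of 10 passed in CL mice, whereas 7 of the 10 were higher and 1 lower on HFD in control mice.

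The lowest and highest HFD CL mice were not the same from gene to gene. HFD CL mouse 5 had the least *Fasn* and *Slc2a5* and the most *Trem2* and *Spp1*, and HFD CL mouse 1 the most *Ucp1*, *Gyk* and *Hcn2*.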
